A study of Triticum aestivum with 4 samples.

Results

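Catalase and superoxide dismutase are the antioxidant enzymes of a wheat leaf panel of 8 target genes measured by quantitative real-time PCR. The assays for *TaCAT1* (*CAT*) and *TaSOD* (*SOD*, a copper-zinc form) were chosen by their gene name in the deposited table of threshold cycles, which gave 2 of the 8 genes and 72 of the 288 wells. Leaves of *Triticum aestivum* were taken around anthesis from the genotypes Misr2, described by the study as heat tolerant, and Line4, described as heat susceptible. Plants of each genotype were sown in the field either on the normal date (control) or late, so that the leaves were sampled in hotter weather (stress). The 4 groups were therefore Misr2 control, Misr2 stress, Line4 control and Line4 stress, with no transgene or chemical treatment in any of them. Each group was deposited as 1 sample, with 3 replicate plants of pooled leaves and 3 wells per replicate, or 9 wells per gene and group. For 2 of these 4 samples the title and the treatment field of the labels name different conditions, and groups follow the titles. Stress differs from control by sowing date, so heat and other differences of season cannot be told apart.

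Superoxide dismutase converts superoxide, a reactive form of oxygen released when electrons leak from photosynthesis and respiration, into hydrogen peroxide and oxygen. Catalase, found mainly in peroxisomes, breaks hydrogen peroxide down into water and oxygen, and in leaves it removes much of the peroxide that photorespiration makes. The enzymes therefore act in sequence, the first producing a substrate of the second. Both assay transcripts (2 of 2) matched a protein-coding gene in RefSeq (assembly IWGSC CS RefSeq v2.1), *CAT1* (also *CAT* or *wcat1*) for catalase and *LOC123169213* for superoxide dismutase. Bread wheat carries related copies of most genes in its subgenomes, so each assay can read a mixture of copies. The panel holds no leaf-specific gene, so the tissue label could not be checked.

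The measured quantity was the threshold cycle (Ct), the cycle of the 40 run at which fluorescence crossed a threshold. A lower Ct means more template, and with amplification taken as a factor of 2 per cycle, 1 cycle is a difference of 1 on the log2 scale. Log2 differences below are differences of −Ct, so a positive value is a higher level. The main values are raw Ct with an equal amount of cDNA loaded, since the Ct of the reference gene was not used here. The main contrasts were therefore also computed relative to the mean and to the median Ct of the 6 other targets, comparisons that are themselves moved by any change in those 6 genes. Wells were assigned to replicates in their deposited order, 3 successive wells each, which the labels do not state. All 72 *CAT* and *SOD* wells lay between 26.4 and 32.0 cycles and none was above 35 cycles, against 27 wells of the other 6 targets. Those were all 9 wells of *PEX11.3* in Misr2 stress, of *PEX11.3* in Line4 control and of *HSP90* in Line4 stress.

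On raw Ct *CAT* took a different level in each of the 4 groups, in the order Misr2 control, Misr2 stress, Line4 stress, Line4 control from the highest level to the lowest, whereas relative to the mean of the 6 other targets Misr2 stress came first, at a Ct difference of −4.04 against −3.62 in Misr2 control, and both Line4 groups kept their places. In Misr2 control the replicate Ct values of *CAT* were 26.69, 26.78 and 26.84, with a mean of 26.8 ± 0.0780 (SD, n = 3). In Misr2 stress they were 28.49, 28.73 and 28.77, with a mean of 28.7 ± 0.153 (SD, n = 3). Both Line4 groups lay later than either Misr2 group. In Line4 control the values were 31.86, 31.84 and 31.54, with a mean of 31.7 ± 0.177 (SD, n = 3). In Line4 stress they were 29.81, 29.78 and 29.83, with a mean of 29.8 ± 0.0237 (SD, n = 3). No replicate of a group overlapped another group, and the 9 wells of each group did not overlap those of the others either. Such separation was not particular to *CAT*, since the replicates of *FIS1A*, *DRP5B* and *HSP90* also overlapped between no groups. The steps between neighbours in this order were 1.89, 1.15 and 1.94 cycles, each with an adjusted p under the threshold of 0.05 in limma. The contrasts of these steps called 100%, 87.5% and 75% of the 8 genes. The range of *CAT* over the groups, 4.98 cycles, ranked 1 of 8 in the panel, but those of *FIS1A* at 4.97 and *HSP90* at 4.86 were close to it.

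On raw Ct *SOD* had 1 early group and 3 late ones, but Misr2 control did not stand apart relative to the mean of the 6 other targets, where the Ct differences were −3.68 in Misr2 control, −3.95 in Misr2 stress, −3.27 in Line4 control and −3.75 in Line4 stress. In Misr2 control the replicate Ct values of *SOD* were 26.59, 26.73 and 26.82, with a mean of 26.7 ± 0.111 (SD, n = 3). In Misr2 stress they were 28.77, 28.63 and 28.84, with a mean of 28.7 ± 0.106 (SD, n = 3). The Misr2 groups were thus about as far apart as for *CAT*. In Line4 control the values were 28.54, 28.52 and 28.59, with a mean of 28.5 ± 0.0347 (SD, n = 3). In Line4 stress they were 28.82, 28.95 and 28.48, with a mean of 28.8 ± 0.240 (SD, n = 3). The replicates of Misr2 control overlapped no other group, which also held for every other target of the panel except *PEX11.4*. The range of Line4 stress, in contrast, enclosed the *SOD* replicates of both other late groups. Between neighbours, Line4 control lay 1.83 cycles after Misr2 control. Misr2 stress lay 0.201 cycles after Line4 control (95% interval −0.00747 to 0.410, limma adjusted p = 0.0661), in a contrast that called 62.5% of the 8 genes. The exact permutation p was 0.1, the smallest value that test can give with 3 replicates per group. Relative to the mean of the 6 other targets, however, *SOD* was higher in Misr2 stress than in Line4 control, by 0.68 on the log2 scale (limma adjusted p = 8.97e-06). Line4 stress lay 0.00294 cycles after Misr2 stress (95% interval −0.206 to 0.212, limma adjusted p = 0.977). The range of *SOD* over the groups was 2.04 cycles, rank 6 of 8.

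**Figure D1:**
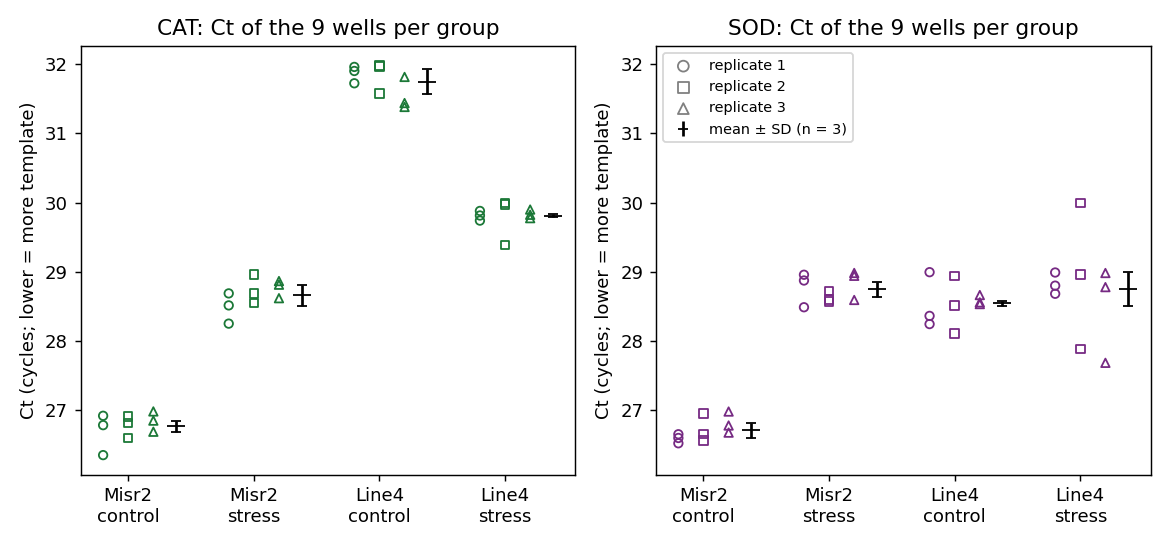
Threshold cycle (Ct, in cycles, y axis) of each well for *CAT* (left) and *SOD* (right) in the 4 groups (x axis), with 1 symbol per replicate and the mean ± SD of 3 replicates in black. *CAT* occupies 4 separate levels from 26.8 to 31.7 cycles, whereas *SOD* is at 26.7 cycles in Misr2 control and between 28.5 and 28.8 cycles in the other groups, with the widest scatter of wells in Line4 stress.

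The wells of *SOD* were uneven between groups. In Line4 stress they ran from 27.7 to 30.0 cycles, a range of 2.31 cycles with an SD of 0.736 within replicates, against a median SD within replicates of 0.266 over the 4 groups. The wells of *CAT* were more even, with an SD within replicates from 0.191 to 0.212, and the median of the 6 other targets was 0.133. In 5 of the 8 sets of a gene and a group, the SD of the replicate means was below the SD that the well scatter alone would give a mean of 3 wells, as for *CAT* in Line4 stress, with 0.0237 against 0.118. Each of the 6 other targets also had such sets, and *DRP5B* had them in all 4 groups. The p-values above and below therefore measure a spread that may be largely technical and not that between plants.

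The first comparison was stress against control in Misr2, where both transcripts fell on raw Ct but were higher relative to the 6 other targets. *CAT* fell by 1.89 on the log2 scale (SE 0.0899, 95% interval −2.08 to −1.70, limma adjusted p = 3.11e-13), which is 3.71-fold lower, but it was higher by 0.42 relative to the mean of the 6 other targets and by 0.76 relative to their median. *SOD* fell by 2.04 (SE 0.0988, 95% interval −2.25 to −1.83, limma adjusted p = 3.65e-13), 4.10-fold lower, but was higher by 0.27 relative to that mean and by 0.62 relative to that median. All 8 genes of the panel fell on raw Ct in this contrast, so the background of calls was 100%, and the median over the 8 was −2.05. The mean Ct of the 6 other targets was 30.4 in Misr2 control and 32.7 in Misr2 stress, a shift of 2.31 cycles. The raw falls of *CAT* and *SOD* thus lay near the middle of the panel, with *FIS1A*, a fission factor of peroxisomes and mitochondria, at the low end and *HSP70*, a heat shock chaperone, at the high end.

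Against single partners, the Misr2 response of both genes took either sign. Among the 28 gene pairs, 82.1% changed in this contrast, and *CAT* was higher against 3 partners, lower against 2 and not called against 2 of its 7 pairs. Its values ran from −1.43 against *HSP70* to 3.08 against *FIS1A*. *SOD* was higher against 2 partners, lower against 2 and not called against 3, from −1.57 against *HSP70* to 2.94 against *FIS1A*.

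In Line4 *CAT* rose under stress, whereas *SOD* did not pass the test on raw Ct. *CAT* rose by 1.94 on the log2 scale (SE 0.0899, 95% interval 1.75 to 2.13, limma adjusted p = 5.26e-13), 3.83-fold, by 2.62 relative to the mean of the 6 other targets and by 3.65 relative to their median. It was the gene with the largest rise of the 8, in a contrast that called 75% of them, 3 up and 3 down. *CAT* also rose against each of its 7 partners, from 1.03 against *PEX11.4*, a peroxin of the family that elongates peroxisomes, to 5.35 against *HSP90*, a chaperone, where 96.4% of all pairs were called. All 9 *HSP90* wells of Line4 stress lay above 35 cycles, so the value of 5.35 rests on late wells. *SOD* gave −0.20 (SE 0.0988, 95% interval −0.413 to 0.00453, limma adjusted p = 0.0624, exact permutation p = 0.4), a difference that did not pass the threshold, and relative to the 6 other targets it was higher, by 0.47 with their mean (limma adjusted p = 0.000376) and by 1.51 with their median. The call for *SOD* also turned on the stressed replicate with the lowest Ct, and so the highest level. Without this replicate, Line4 stress replicate 3, the value was −0.34 (limma adjusted p = 0.000855). At an unchanged −0.20 the call was also made with only the 2 groups compared (limma adjusted p = 0.0373) and without Misr2 stress replicate 3. It thus depended on the pooled spread as well. The mean of the 6 other targets moved by 0.679 cycles, from 31.8 to 32.5.

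The responses of the genotypes were then set against each other. The change of *CAT* in Misr2 minus that in Line4 was −3.83 (SE 0.127, limma adjusted p = 2.28e-15), and it was −2.20 relative to the mean of the 6 other targets and −2.88 relative to their median. For *SOD* the same difference was −1.83 (SE 0.140, limma adjusted p = 4.46e-10), but relative to that mean it was −0.20 (limma adjusted p = 0.220) and did not pass, whereas relative to that median it was −0.89 (limma adjusted p = 0.000175) and did. The background was 87.5% of the 8 genes, and on raw Ct each of these 7 had the more negative change in Misr2.

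**Figure D2:**
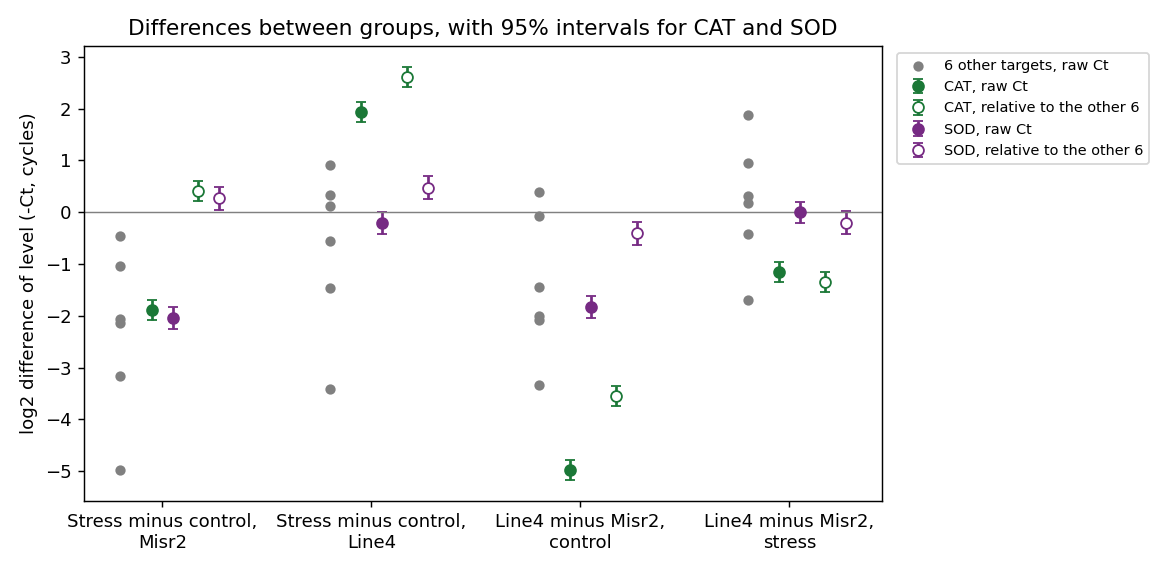
Differences between groups on the log2 scale (−Ct, in cycles, y axis) for the 4 contrasts (x axis), with *CAT* and *SOD* as coloured points with 95% intervals and the 6 other targets as grey points. Filled points are raw Ct and open points are relative to the mean of the 6 other targets, and the stress response in Misr2 changes sign between them for both genes, from −1.89 to 0.42 for *CAT* and from −2.04 to 0.27 for *SOD*.

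The genotypes were compared next under the same sowing. In control plants *CAT* was far lower in Line4 than in Misr2, by −4.98 on the log2 scale (SE 0.0899, 95% interval −5.17 to −4.79, limma adjusted p = 1.99e-19) or 31.5-fold, by −3.55 relative to the mean of the 6 other targets and by −3.25 relative to their median. This was the lowest value of the 8 genes, of which 87.5% were called. *CAT* was lower against all 7 partners, from −5.36 against *HSP70* to −1.64 against *FIS1A*, with 89.3% of all pairs called. *SOD* was lower in Line4 by −1.83 (SE 0.0988, 95% interval −2.04 to −1.63, limma adjusted p = 2.32e-12) or 3.57-fold, and by −0.41 relative to the mean of the 6 other targets. Against the median of those 6 it was −0.11 (limma adjusted p = 0.415). The mean of the 6 other targets was itself 1.43 cycles later in Line4 control.

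Under stress the genotype gap in *CAT* was smaller, as the test of the difference above gives, and no gap in *SOD* was detected on raw Ct. *CAT* was lower in Line4 by −1.15 on the log2 scale (SE 0.0899, 95% interval −1.34 to −0.958, limma adjusted p = 1.20e-09), 2.22-fold, by −1.35 relative to the mean of the 6 other targets and by −0.36 relative to their median (limma adjusted p = 0.00507). *CAT* was lower against 6 partners and higher against *HSP90* by 0.55, in a contrast with 92.9% of pairs called. The *HSP90* wells of Line4 stress all lay above 35 cycles. *SOD* gave −0.00294 (95% interval −0.212 to 0.206, limma adjusted p = 0.977, exact permutation p = 1), when 87.5% of the 8 genes were called, and −0.21 relative to the mean of the 6 other targets (95% interval −0.428 to 0.0153), but 0.78 relative to their median (limma adjusted p = 2.00e-05). The stress contrasts and the genotype contrasts share groups, so a low level in 1 group enters more than 1 of them.

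The difference between *CAT* and *SOD* within the same replicate needs no reference gene, since the amount of cDNA cancels. The labels do not link wells of different assays, so the replicates were matched by well order. Group means of the difference do not depend on this matching. Ct values of different assays are not compared as amounts of transcript, and only the change of this difference between groups is read. In Misr2 control the Ct of *CAT* minus that of *SOD* was 0.0936, 0.0522 and 0.0283 cycles, with a mean of 0.0580 ± 0.0330 (SD, n = 3). In Misr2 stress it was −0.288, 0.1004 and −0.0732 cycles, with a mean of −0.0870 ± 0.195 (SD, n = 3). The replicates of these groups overlapped. In Line4 control it was 3.32, 3.32 and 2.96 cycles, with a mean of 3.20 ± 0.211 (SD, n = 3), and in Line4 stress it was 0.986, 0.838 and 1.35 cycles, with a mean of 1.06 ± 0.263 (SD, n = 3). The Line4 groups overlapped neither each other nor Misr2.

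In Misr2 the balance of *CAT* to *SOD* did not change detectably under stress, with a log2 difference of 0.15 (SE 0.132, 95% interval −0.124 to 0.414, limma adjusted p = 0.313). With an amplification of 1.9 per cycle for *CAT* alone it was 0.28 (limma adjusted p = 0.0402), and with 1.9 for *SOD* alone −0.00566. In Line4 the balance rose by 2.14 under stress (SE 0.132, limma adjusted p = 5.84e-16), a 4.41-fold gain of *CAT* over *SOD*. With the replicates of the 2 assays unmatched, the limma adjusted p of this rise was 3.75e-11. The difference between these responses was −1.997 (SE 0.186, limma adjusted p = 2.25e-11), with 89.3% of pairs called. Line4 held less *CAT* per *SOD* than Misr2 in control plants by −3.14 (limma adjusted p = 2.02e-20), 8.83-fold, and in stressed plants by −1.14 (limma adjusted p = 2.01e-09), 2.21-fold. The 28 pairs share their 8 genes, so their moderated p-values count shared information, and without moderation the adjusted p-values in limma were 1.69e-06 for the rise in Line4 and 3.90e-05 for the difference between responses.

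The single wells, without averaging, set only Line4 control fully apart. Of the 81 pairings of a *CAT* well with a *SOD* well in a group, *CAT* was later in 53 in Misr2 control, 32 in Misr2 stress, 81 in Line4 control and 73 in Line4 stress. Wells of *CAT* in Line4 control crossed the threshold 2.38 to 3.87 cycles after those of *SOD*, whereas in Line4 stress the differences ran from −0.604 to 2.31 cycles. They ran from −0.629 to 0.460 cycles in Misr2 control and from −0.731 to 0.472 cycles in Misr2 stress, so Line4 stress overlapped both Misr2 groups. The pairings reuse the same wells and are not independent.

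**Figure D3:**
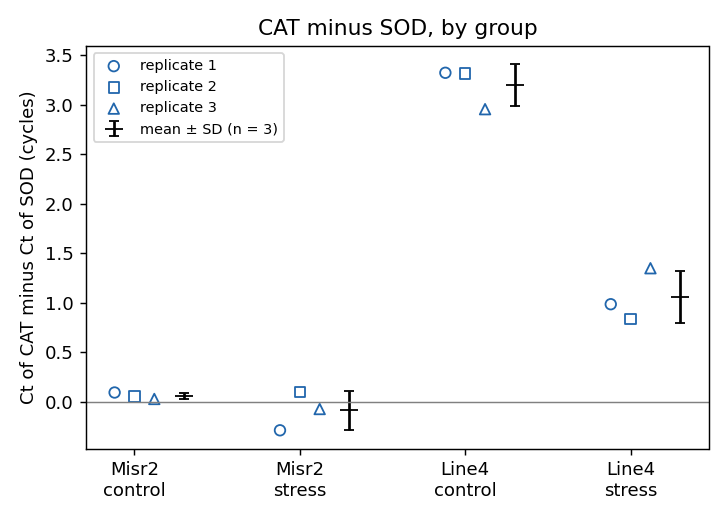
Ct of *CAT* minus Ct of *SOD* (cycles, y axis) in each of the 3 replicates of the 4 groups (x axis), with the mean ± SD in black and a line at 0. Both Misr2 groups lie around 0, Line4 control lies at 3.20 cycles and Line4 stress at 1.06 cycles.

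**Figure D4:**
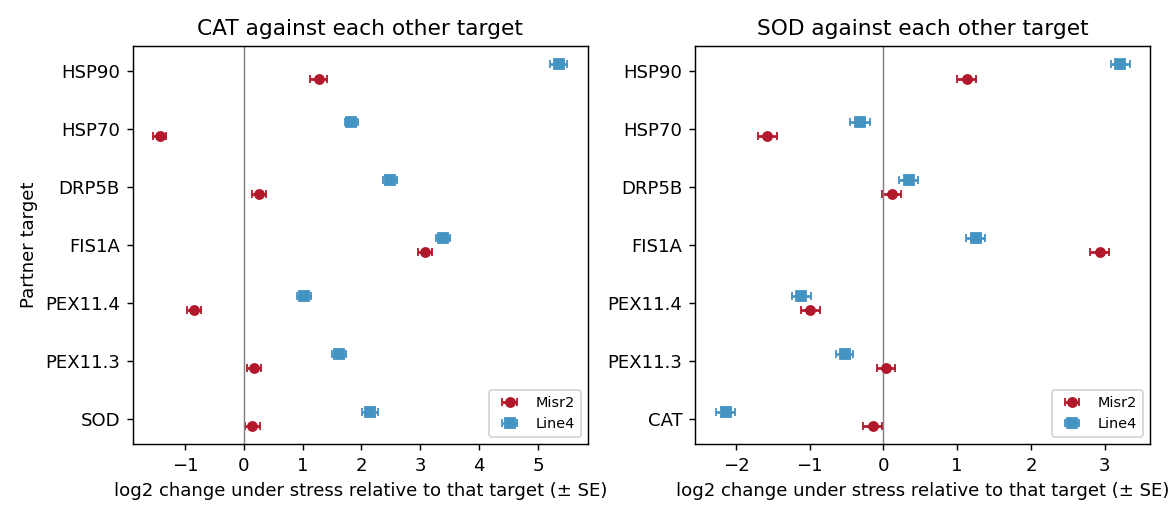
Change under stress of *CAT* (left) and *SOD* (right) relative to each of the 7 other targets (y axis), on the log2 scale with SE (x axis), in Misr2 and in Line4. In Line4 every *CAT* value is above 0, from 1.03 to 5.35, whereas the other sets of values fall on both sides of 0. The value of 5.35 is against *HSP90*, whose 9 wells in Line4 stress all lay above 35 cycles.

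The pattern of each gene over the 4 groups was compared with the other targets by the root mean square difference of group means, each gene centred on its own mean. The nearest to *SOD* was *PEX11.3*, a peroxin of peroxisome division, at 0.188 cycles, and *DRP5B*, a dynamin-related protein that in *Arabidopsis* divides chloroplasts and peroxisomes, followed at 0.194. *CAT* was the farthest from *SOD*, at 1.31 cycles. *CAT* had no near neighbour, since its closest target was again *PEX11.3*, at 1.23 cycles. Seen from *CAT*, *SOD* ranked 3 of the 7 other targets in closeness. All 9 wells of *PEX11.3* lay above 35 cycles in Misr2 stress and in Line4 control, so its distances rest partly on late wells.

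The decimals of the deposited values set *CAT* apart together with *DRP5B* by shared digits, and *SOD* by its zeros. Values were given to 6 decimals, and in 5 pairs of wells of the same group *CAT* and *DRP5B* had all 6 decimals in common, with Ct values exactly 4, 4, 1, 3 and 3 cycles apart. No other pair of the 28 gene pairs did so. At the last 4 decimals 4 gene pairs shared values within a group, *CAT* and *DRP5B* with 11 matches and each of the others with 1. Of the 9 *SOD* wells in Line4 control, 9 ended in 2 zeros, and 7 of the 9 in Line4 stress ended in 1 zero. In Misr2 stress, 5 of the 9 *SOD* wells ended in at least 1 zero. Among the other targets the most was 3 of 9 wells, for *PEX11.4* in Line4 stress, and *CAT* had at most 2. How these values arose was not tested, and each result on *CAT* or *SOD* above includes them.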

How the data were processed

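Leaf cDNA of 4 groups was assayed with SYBR Green by quantitative PCR. The authors deposited the raw Ct of each target well, not normalized (unit: cycles, named as other), and a table of linear ratios (stress over control, from ΔΔCt). The ratio table holds the authors' own comparison and was not used here, nor were the ΔCt, enzyme activities and trait values of the paper. Well position served only as replicate order. Means of 3 wells were taken as 3 replicates per group, and −Ct went into a linear model (limma 3.58.1, R 4.3.3) of the 4 group means with Benjamini-Hochberg adjustment over 8 genes or, for differences between assays, 28 gene pairs. The threshold was an adjusted p of 0.05. The exact two-sided permutation test has 20 arrangements of 3 against 3, and its smallest possible p is 0.1. Every contrast of 2 groups called in limma on raw Ct for *CAT* or *SOD* gave this value, so none passed 0.05 by the exact test. The model was run on simulated data with independent replicates at the observed spread, which cannot show whether that spread is technical. Amplification was not measured, and a Ct has no read depth behind it. Alternatives were relative Ct (mean or median of the 6 other targets), the median of wells, wells as replicates, wells taken at steps of 3, an amplification of 1.9, 2 groups only, no moderation, a replicate block and leaving out each replicate. For the difference of *CAT* and *SOD*, unmatched replicates were a further alternative. The genes named are *CAT*, *SOD*, those nearest in pattern, those at the ends of an order and those sharing decimals. Genes and tests were chosen with earlier results of these data known. Figures were drawn with matplotlib 3.10.9 in Python 3.11.15.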

Additional observations from a re-analysis of the deposited data

Results flagged for a closer look

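The stress response differed between the genotypes by a test of the difference itself in 3 results. Stress minus control in Misr2, minus the same in Line4, was −3.83 for *CAT* (limma adjusted p = 2.28e-15), −1.83 for *SOD* (limma adjusted p = 4.46e-10) and −1.997 for *CAT* relative to *SOD* (limma adjusted p = 2.25e-11), all on the log2 scale with 3 replicates per group. The value for *SOD* did not pass relative to the mean of the 6 other targets (−0.20, limma adjusted p = 0.220) but passed relative to their median (−0.89, limma adjusted p = 0.000175), and the one for *CAT* relative to *SOD* uses no other target. No group had enough replicates for a check of single outlying samples.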

How the results depend on the processing

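Over 15 results on *CAT*, *SOD* and their difference, 12 other settings left 124 of 137 values with the same direction and call, and leaving out each replicate left 175 of 180. Part of this sameness was fixed in advance. The same amplification of 1.9 for all genes only rescales the values. Regrouped wells, no moderation and a replicate block keep each estimate, as does leaving out a replicate outside the contrast. Only the 2 settings relative to the 6 other targets bear on the missing reference gene. Relative to the mean of the 6 other targets, the stress response in Misr2 was 0.42 for *CAT* and 0.27 for *SOD*, that of *SOD* in Line4 was 0.47, and the *SOD* difference between responses was −0.20. Relative to their median, the values were 0.76, 0.62 and 1.51, the *SOD* genotype difference was −0.11 in control and 0.78 in stress, and the *CAT* genotype difference in stress kept its call at −0.36. The *SOD* response in Line4 passed the threshold with the median of wells (−0.37) and with only the 2 groups compared (−0.20, limma adjusted p = 0.0373). The *CAT* to *SOD* response in Misr2 was 0.28 with amplification 1.9 for *CAT* and −0.00566 with 1.9 for *SOD*. Why these values moved was not tested, beyond the shift of the 6 other targets given above. Leaving out each replicate gave −0.339 to −0.107 for *SOD* in Line4, where the call was made without Misr2 stress replicate 3 or Line4 stress replicate 3, and −0.137 to 0.0947 for the *SOD* genotype difference in stress, positive without Misr2 stress replicate 2 or Line4 stress replicates 1 or 2. The labels give no replicate numbers. A replicate block by well order changed no call (8, 6, 7 and 7 genes called in the 4 contrasts, *SOD* in Line4 adjusted p = 0.113 in limma). Deviations at the same position in different groups correlated from −0.475 to 0.679, so positions were not read as pairs between groups. Within a group, replicates of different assays were matched by position.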
